A study of Rattus norvegicus with 8 samples.

Results

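Perineuronal nets are sheets of extracellular matrix that wrap the somata and proximal dendrites of certain neurons, most prominently the parvalbumin interneurons. Chondroitin sulfate proteoglycans of the lectican family bind a hyaluronan backbone on the cell surface, link proteins lock them onto it, and tenascins tie neighbouring lecticans together. Nets are known for closing developmental windows of plasticity and for stabilising synapses. The 9 genes described here encode 4 lecticans (Acan, Bcan, Ncan and Vcan), 3 link proteins (Hapln1, Hapln2 and Hapln4) and 2 tenascins (Tnr and Tnc), out of 28909 gene symbols in the count table. They were chosen by gene family, but the family itself was selected on the rise of Acan after picrotoxin (PTX). The PTX values of the members are therefore given as a description without p-values. Counts of members that passed a threshold after PTX are likewise a description, from which no conclusion is drawn.

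The libraries came from Sprague-Dawley rat hippocampal neurons grown on porous filter inserts, where somata stay on the upper side and processes reach the lower side. Cultures received PTX, which blocks GABA-A receptors and so raises network activity, for 48 h between days 18 and 20 in vitro, and control cultures received vehicle. Ribosome-depleted RNA was sequenced from somata and processes of control and PTX cultures, giving 4 conditions with 2 libraries each and 8 libraries in all. The cultures are mixed: neurons grow together with glia, and the lower side of an insert holds whatever crosses the pores. In bulk RNA, fewer cells of a type and less RNA per cell cannot be told apart. The labels do not say whether replicates came from separate cultures, so the p-values measure the spread between these libraries.

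Totals ranged from 12290890 to 18455662 counts per library, but outside the mitochondrial genome somata libraries held 9517542 to 11227599 counts and processes libraries 4702054 to 5491237. Markers of neurons passed the filter on low counts for 8 of 8 genes, with a summed level of 1810 to 2280 CPM (read counts scaled to library size with TMM factors) in somata and 4070 to 5710 CPM in processes. The higher sum in processes follows Map2, a dendritic transcript (936 CPM in control somata and 4610 CPM in control processes), while Syt1 (log2 fold change -0.98), Tubb3 (-0.57) and Snap25 (-0.37) of the same list were lower in control processes. Astrocyte markers passed for 10 of 10 genes and summed to 3250 to 4560 CPM in somata and 11500 to 15000 CPM in processes. Of the 8 oligodendrocyte precursor markers, 7 had a row and all 7 passed, at 245 to 385 CPM in somata and 401 to 571 CPM in processes. Olig1 (log2 fold change 0.96), Pdgfra (0.42) and Cspg4 (0.39) had positive values in control processes against somata. Olig2 (-0.08), C1ql1 (-0.29), Sox10 (-0.79) and Gpr17 (-1.73) had negative values. Of 12 interneuron markers, 11 passed. The exception was Pvalb, the parvalbumin gene that defines the classical net-bearing cells, which had 4 to 18 reads in each of the 8 libraries. None of the 8 microglial markers passed, and together they summed to no more than 2.44 CPM in any library.

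Several members lie in the genome beside another member. In the RefSeq annotation of assembly GRCr8, Acan is next to Hapln3, Vcan next to Hapln1, Bcan next to Hapln2 and Ncan next to Hapln4, so that each lectican gene has a link protein gene as its neighbour. Hapln3 is not a member, and the tenascin genes Tnr and Tnc have no member beside them. The windows just upstream of the annotated starts are shown for Acan, because its transcript differed most between PTX and control, and for Hapln1 and Vcan, the neighbours in which a cAMP response element core was found. Both sequences searched, the core TGACG and the AP-1 motif TGANTCA, are known as binding sites of activity-regulated transcription factors and were sought on both strands in the 250 bases before the start. The Acan window is chr1:142390701-142390950 on the plus strand, the Hapln1 stretch is chr2:22366744-22366788 on the plus strand, and the Vcan stretch, from the second of its 2 annotated windows, is chr2:22595860-22595923 on the minus strand. Capitals mark the core or its reverse complement.
Acan: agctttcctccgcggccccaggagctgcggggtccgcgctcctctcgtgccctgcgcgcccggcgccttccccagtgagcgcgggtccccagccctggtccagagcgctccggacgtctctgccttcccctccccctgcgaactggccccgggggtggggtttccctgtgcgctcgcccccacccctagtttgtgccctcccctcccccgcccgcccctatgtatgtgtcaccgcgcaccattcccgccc
Hapln1: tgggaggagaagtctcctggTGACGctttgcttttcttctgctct
Vcan: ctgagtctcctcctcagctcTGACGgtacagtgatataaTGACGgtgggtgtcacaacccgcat
In the Hapln1 window the core began 203 bases before the start, and in the Vcan window the cores began 46 and 27 bases before it. The Acan window held neither motif, and 73.6% of its bases were G or C, against a median of 51.2% over all 33469 windows. All 9 members had a window, and only those of Hapln1 and Vcan held the core, which 18.2% of all windows hold. The AP-1 motif was in none of the members' windows and in 6.34% of all. A match describes letters only, and no match says no more than that these letters are not in this window.

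Of the 9 members, 8 passed 20 reads in 2 or more libraries and were tested among 14309 genes. Hapln2, the link protein of myelinated axon nodes, was the exception. It had 1 and 0 reads in somata control, 1 and 3 in somata PTX, and 0 in every processes library, all at or under the 3 reads that a count of 0 allows (0.108 to 0.128 CPM in somata and 0.302 to 0.352 CPM in processes, counting error only). All levels below are in CPM. They are compared between conditions for a gene and not between genes, since transcript lengths were not used here.

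Acan encodes aggrecan, the lectican that carries the most chondroitin sulfate and the usual marker of mature nets. It was the member that differed most between PTX and control, and it did so in both compartments. In somata control libraries it had 4.76 and 2.78 CPM (112 and 71 reads), and in somata PTX libraries 42.1 and 36.7 CPM (1172 and 867 reads). In processes control libraries it had 1.34 and 0.705 CPM, from 12 and 6 reads, and in processes PTX libraries 11.8 and 9.65 CPM, from 103 and 96 reads. The groups did not overlap in either compartment, and the lower PTX library was far above the higher control library in each. The PTX level was 10.5-fold the control level in somata (log2 fold change 3.39, SE 0.226) and 10.3-fold in processes (3.37, SE 0.368). Within replicate 1 the log2 difference was 3.11 in somata and 3.04 in processes, and within replicate 2 it was 3.67 and 3.57. The control level of replicate 2 was below that of replicate 1 in both compartments, and the PTX level as well.

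The order of the Acan levels was somata PTX, processes PTX, somata control, processes control, with no overlap between neighbours in that order. In control cultures Acan was lower in processes than in somata by 3.63-fold (log2 fold change -1.86, SE 0.396, quasi-likelihood adjusted p = 0.00303), and in PTX cultures by 3.68-fold (-1.88, SE 0.219, quasi-likelihood adjusted p = 5.21e-05). The 2 comparisons share no library. The interaction, that is the PTX log2 fold change of processes minus the one of somata, was -0.02 (95% interval -0.97 to 0.93), an interval that spans larger and smaller responses in processes than in somata.

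**Figure D1:**
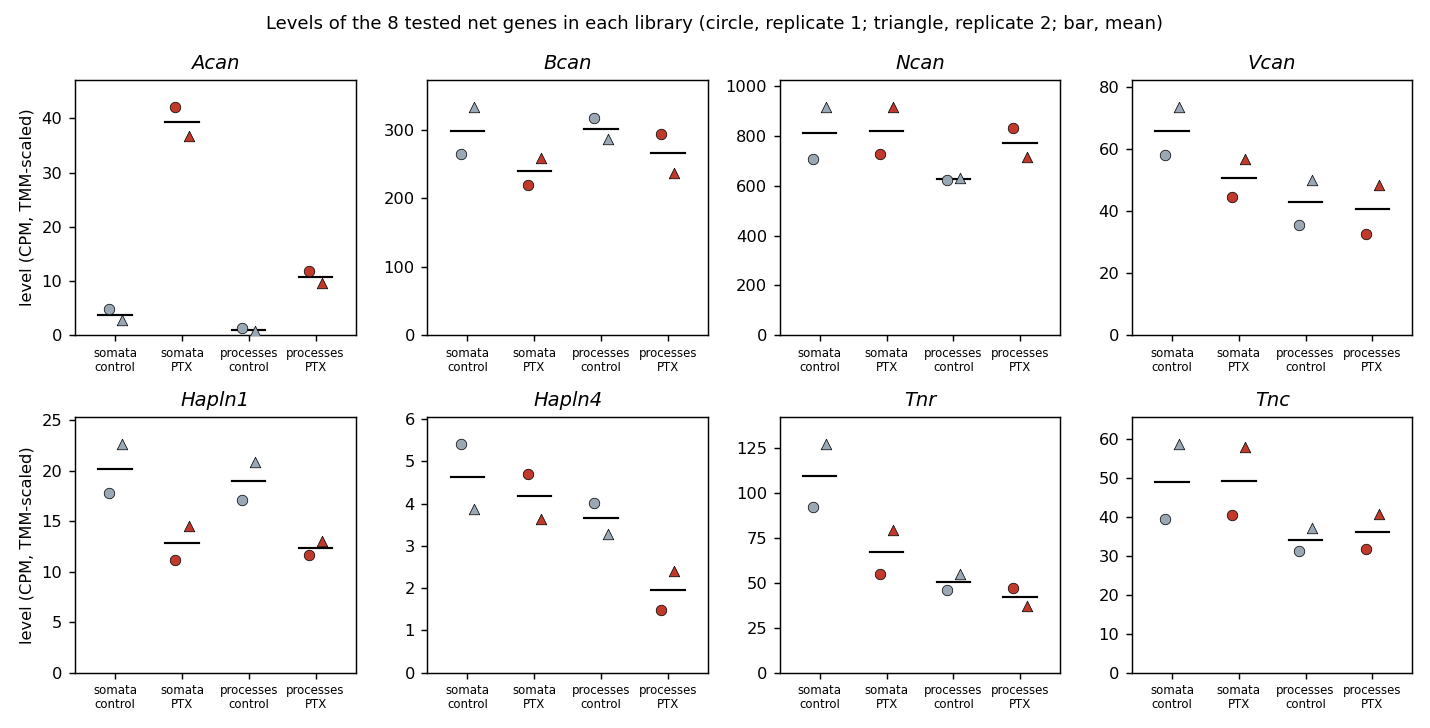
Level of each tested member (CPM after TMM scaling, linear axis from 0, its own scale for each gene) in the 8 libraries, grey for control and red for PTX, circles for replicate 1, triangles for replicate 2 and a bar for the mean of the 2. The red Acan points sit at 36.7 to 42.1 CPM in somata and 9.65 to 11.8 CPM in processes, above every control point, while Hapln1 shows the opposite order with smaller distances.

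The other lecticans did not share this pattern. Brevican (Bcan), a lectican of the adult brain made by glia and neurons, had 264 and 333 CPM in somata control, 220 and 259 in somata PTX, 317 and 286 in processes control, and 294 and 237 in processes PTX. Its 4 conditions overlapped with their neighbours in order of level, but in somata both PTX libraries lay below both control libraries. The log2 fold change after PTX was -0.32 (SE 0.154) in somata and -0.18 (SE 0.155) in processes, where the groups overlapped. Neurocan (Ncan), the lectican that prevails in the developing brain, had 708 and 915 CPM in somata control, 725 and 914 in somata PTX, 623 and 629 in processes control, and 831 and 715 in processes PTX. The somata groups of Ncan were nearly the same (log2 fold change 0.01, SE 0.161), whereas in processes both PTX libraries were above both control libraries (0.30, SE 0.162). Versican (Vcan), a lectican with large splice forms made by oligodendrocyte precursors and other cells, had 58 and 73.4 CPM in somata control and 44.4 and 56.8 CPM in somata PTX. Its groups were close but did not overlap in somata (log2 fold change -0.38, SE 0.206), and they overlapped in processes, where it had 35.6 and 50 CPM in control and 32.6 and 48.4 CPM in PTX libraries (-0.07, SE 0.224).

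The link protein Hapln1, which stabilises lecticans on hyaluronan, was lower in PTX than in control libraries on both sides of the filter. It had 17.8 and 22.6 CPM in somata control against 11.2 and 14.5 CPM in somata PTX, and 17.1 and 20.9 CPM in processes control against 11.6 and 13 CPM in processes PTX. The groups did not overlap in either compartment, and the log2 fold change was -0.66 (SE 0.170) in somata and -0.62 (SE 0.196) in processes. By replicate the difference was -0.67 and -0.64 in somata and -0.55 and -0.68 in processes, so the pairs differed less than the libraries of a group. Acan and Hapln1 thus differed from control in opposite directions, in each compartment and each replicate.

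Hapln4, the link protein of inhibitory synapses and a partner of brevican, was a low transcript with 13 to 131 reads per library. Its somata levels were 5.4 and 3.88 CPM in control and 4.71 and 3.64 CPM in PTX, which overlapped (log2 fold change -0.14, SE 0.246). In processes it had 4.01 and 3.29 CPM in control and 1.49 and 2.41 CPM in PTX (-0.89, SE 0.348), with no overlap but with a within-replicate difference of -1.36 in replicate 1 and -0.43 in replicate 2. Hapln3, the link protein of other tissues that neighbours Acan, belonged to a separate list of hyaluronan genes. It had 1.62 and 2.19 CPM in somata control and 3.81 and 2.92 CPM in somata PTX (log2 fold change 0.82, SE 0.279, quasi-likelihood adjusted p = 0.166, and 0.0224 with the replicate block). In processes Hapln3 rested on 9 to 20 reads per library (0.53, SE 0.431, quasi-likelihood adjusted p = 0.608).

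Of the tenascins, tenascin-R (Tnr), a cross-linker of lecticans in the adult brain that oligodendrocyte lineage cells make, was lower in somata PTX (55.1 and 79.3 CPM) than in somata control libraries (92.1 and 127 CPM). The groups did not overlap, with a log2 fold change of -0.70 (SE 0.198) and within-replicate differences of -0.74 and -0.68. In processes Tnr had 46.1 and 55 CPM in control and 47.2 and 36.9 CPM in PTX (-0.27, SE 0.215), where the groups overlapped. Tenascin-C (Tnc), the tenascin of developing and reactive astrocytes, was nearly level after PTX, with 39.5 and 58.7 CPM in somata control, 40.6 and 58.1 CPM in somata PTX, 31.2 and 37.2 CPM in processes control and 31.9 and 40.7 CPM in processes PTX. Its log2 fold change was 0.01 (SE 0.210) in somata and 0.09 (SE 0.231) in processes.

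Over the 8 tested members, 5 had a negative and 3 a positive PTX value in somata, with a median log2 fold change of -0.23 against -0.01 over all tested genes. In processes the split was again 5 and 3, with a median of -0.13 against -0.01. At an adjusted p of 0.05, 1 of 8 members, Acan, was called in somata, where 3.59% of all tested genes were called, and 1 of 8, again Acan, in processes, where 3.74% were called. When replicate number entered as a block, 4 of 8 were called in somata (Acan higher, and Vcan, Hapln1 and Tnr lower; 14% of all tested genes) and 2 of 8 in processes (Acan higher and Hapln1 lower; 11.2% of all). Because Acan led to the choice of the family, these counts describe the members and nothing was read from them.

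**Figure D2:**
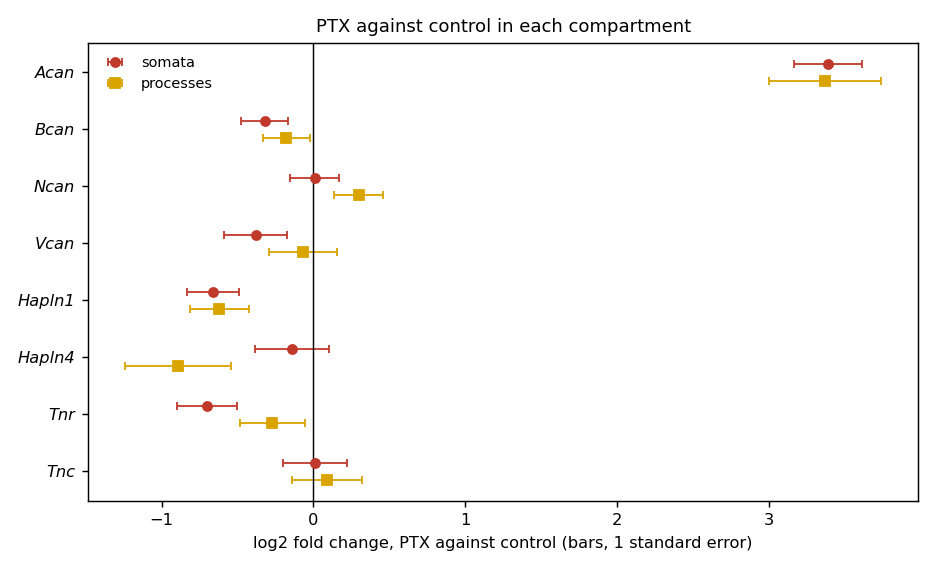
Log2 fold change of PTX against control for each tested member in somata (red circles) and processes (yellow squares), with bars of 1 standard error. Acan stands at 3.39 and 3.37, the other members lie between -0.89 and 0.30, and Hapln1 is negative by similar amounts on both sides, at -0.66 and -0.62.

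Whether the PTX effect differed between compartments was tested as an interaction. None of the 8 members was called by the quasi-likelihood test, as for 0% of all tested genes, and 0 of 8 passed an unadjusted p of 0.05; the likelihood ratio test and DESeq2 also called 0 of 8. With the block 0 of 8 were called, against 0.105% of all tested genes, and 2 of 8 passed an unadjusted p of 0.05. The furthest from 0 were Hapln4, at -0.74 (95% interval -1.68 to 0.20), and Tnr, at 0.44 (-0.21 to 1.08).

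Which compartment holds the net transcripts was asked in control and in PTX cultures separately, contrasts that the choice of members did not use. In control cultures the transcripts of 3 of 8 members were lower in processes than in somata and the other 5 did not pass, where 21.9% of all tested genes were lower and 47.7% differed in either direction. Besides Acan these were Tnr, at 46.1 and 55 CPM in processes against 92.1 and 127 CPM in somata (log2 fold change -1.12, SE 0.207, quasi-likelihood adjusted p = 0.00129), and Vcan (-0.62, SE 0.215, quasi-likelihood adjusted p = 0.035). The Vcan call was lost without replicate 2 of somata control and without replicate 1 of processes control, when its log2 fold change was as small as -0.39.

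Tnc and Ncan had lower means in processes but did not pass (Tnc -0.52, SE 0.222, and Ncan -0.37, SE 0.161, with quasi-likelihood adjusted p = 0.0741 and 0.0788). With the block both passed, at adjusted p = 0.00023 and 0.0105, which gave 5 of 8 lower members where 28% of all tested genes were lower. Without replicate 1 of somata control Tnc stood at -0.78 and Ncan at -0.55, and without its replicate 2 at -0.21 and -0.18. Hapln4 (-0.34, SE 0.283), Hapln1 (-0.09, SE 0.178) and Bcan (0.01, SE 0.154) did not pass in either fit. The 95% interval of Bcan was -0.33 to 0.36 and that of Hapln1 -0.48 to 0.30.

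In PTX cultures 3 of 8 members were again lower in processes and the other 5 did not pass, where 24% of all tested genes were lower. Acan and Tnr (-0.68, SE 0.208, quasi-likelihood adjusted p = 0.0194) passed here too, and Hapln4 passed with -1.08 (SE 0.312, quasi-likelihood adjusted p = 0.0145), at 1.49 and 2.41 CPM in processes against 4.71 and 3.64 CPM in somata. The Tnr call was lost without replicate 2 of either PTX group, when the value was as small as -0.39, and the Hapln4 call without replicate 1 of either PTX group, when it was as small as -0.79. Tnc (-0.44, SE 0.220, quasi-likelihood adjusted p = 0.12) and Vcan (-0.32, SE 0.215, quasi-likelihood adjusted p = 0.244) passed with the block, at adjusted p = 0.000805 and 0.00576, giving 5 of 8 lower members where 29.6% of all tested genes were lower. Ncan (-0.08), Hapln1 (-0.06) and Bcan (0.15) did not pass in either fit.

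The median of the members was -0.45 in control and -0.38 in PTX cultures, against -0.05 over all tested genes in both. These directions depend on the scaling. Scaled by library size only, the median of all genes moved to -1.86 in control and -1.87 in PTX cultures, every member was negative, and Bcan turned from 0.01 to -1.80. Relative to the median of all genes, Acan stood at -1.81, Tnr at -1.06 and Bcan at 0.06 under that scaling, against -1.81, -1.07 and 0.06 under TMM. The summed astrocyte markers were higher in processes than in somata libraries, as given above. The sum follows Gfap and S100b, which had 1680 and 355 CPM in control somata and 10200 and 1590 CPM in control processes. Of the 10 markers, 5 were higher in control processes and 2 lower, where 3688 of 14309 tested genes were higher and 3135 lower. The 2 lower markers were the glutamate transporter Slc1a3 (-0.56, quasi-likelihood adjusted p = 0.0143) and the gap junction gene Gja1 (-0.38, quasi-likelihood adjusted p = 0.0268). The part of the astrocyte markers in the compartment values of Bcan, Ncan and Tnc was not tested.

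**Figure D3:**
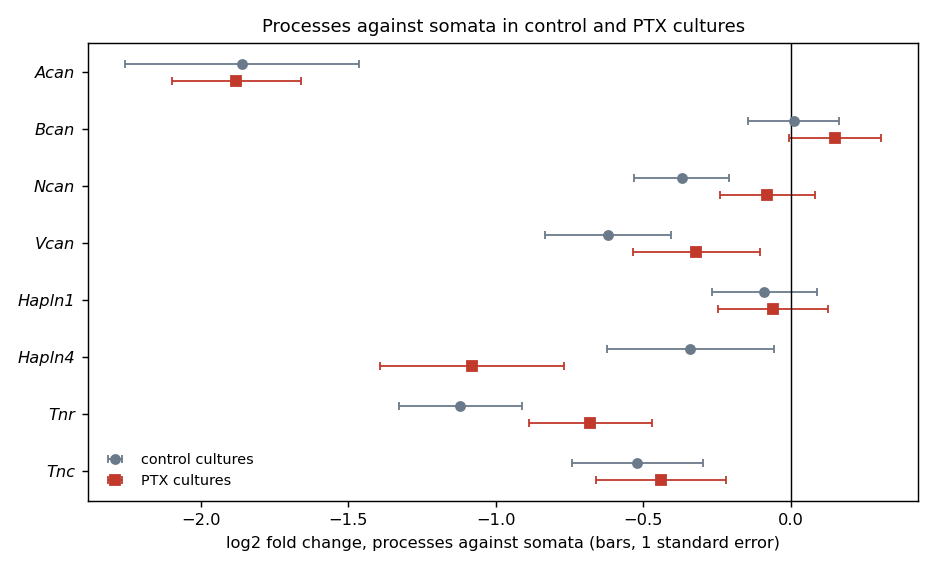
Log2 fold change of processes against somata for each tested member in control cultures (grey circles) and PTX cultures (red squares), with bars of 1 standard error, from 4 separate libraries each. Acan lies furthest to the left in both (-1.86 and -1.88), Hapln1 and Bcan lie near 0, and Hapln4 differs most between the cultures (-0.34 and -1.08).

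The replicates differed in a way that ran through the family. In somata, replicate 2 was above replicate 1 for Bcan, Ncan, Vcan, Hapln1, Tnr and Tnc, in control and in PTX libraries, and below it for Acan and Hapln4. The summed oligodendrocyte precursor markers were likewise higher in replicate 2 (385 against 264 CPM in control and 367 against 245 CPM in PTX somata), and so were the astrocyte markers (4560 against 4170 and 4290 against 3250 CPM). The interneuron markers were lower in replicate 2, at 354 against 493 CPM in control and 541 against 703 CPM in PTX somata. Fibroblast and vascular markers were lower by a larger ratio, at 29.1 against 58.2 CPM in control and 39 against 63.8 CPM in PTX somata. Neuron, excitatory neuron and microglial markers were also lower in replicate 2. Oligodendrocyte markers were higher, at 203 against 107 CPM in control and 144 against 82.2 CPM in PTX somata. The part of these markers in the member values was not tested.

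**Figure D4:**
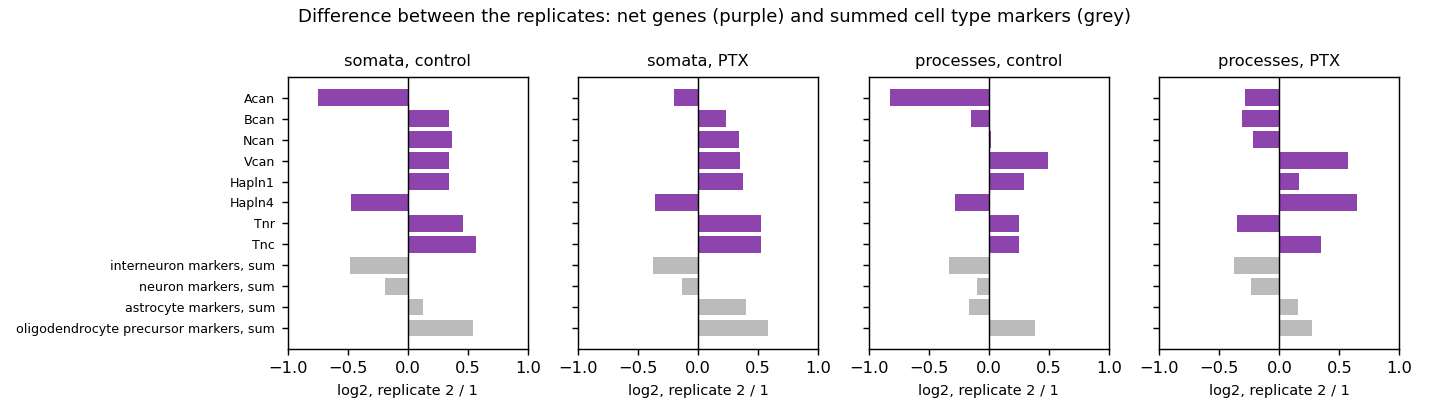
Log2 ratio of replicate 2 to replicate 1 in each of the 4 conditions for the 8 tested members (purple) and for the summed CPM of 4 of the 8 marker lists (grey). In both somata panels Acan, Hapln4 and the interneuron and neuron markers point left. The other 6 members and the astrocyte and precursor markers point right there, while in the processes panels the members do not divide in the same way.

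Some markers of neuron types also differed between PTX and control. Gad1 and Gad2, which encode the enzymes of GABA synthesis, rose in somata by 1.77-fold and 1.89-fold (log2 fold changes 0.82, SE 0.171, and 0.92, SE 0.204, with quasi-likelihood adjusted p = 0.0247 and 0.0328), and Gad2 rose in processes (0.92, SE 0.211, quasi-likelihood adjusted p = 0.0384). Slc32a1, the vesicular GABA transporter, stood at -0.02 (SE 0.182, quasi-likelihood adjusted p = 0.976) in somata. Over the list, 2 of 11 tested markers were called in somata, beside 3.59% of all tested genes, and 1 of 11 in processes, beside 3.74%, all higher. With the replicate block 5 of 11 were called in somata, all higher, beside 14% of all tested genes. Vip, which is among the 5, passed the filter only through somata PTX, with 30 reads in somata control and 72 in somata PTX. In processes, with the block, 2 were higher (Gad1, adjusted p = 0.000638, and Gad2) and 1 lower (Kcnc1, a potassium channel of fast-spiking cells, -0.75, adjusted p = 0.0317), beside 11.2% of all tested genes. Other markers of the list, such as Lhx6 (0.07, SE 0.451), Erbb4 (-0.15, SE 0.106) and Reln (0.12, SE 0.220), did not pass in somata, and the sum of the list follows its abundant members Gad1 and Gad2. The summed markers had 354 to 493 CPM in control and 541 to 703 CPM in PTX somata, and 202 to 254 against 292 to 379 CPM in processes. The part of these markers in the Acan values was not tested. Of 8 excitatory neuron markers, 2 were lower after PTX in somata, namely Camk2a, a kinase of excitatory synapses (-1.13, SE 0.149, quasi-likelihood adjusted p = 0.00305), and Neurod6, a transcription factor of pyramidal cells (-1.64, SE 0.171, quasi-likelihood adjusted p = 0.000785). In processes Camk2a (-1.45), Neurod6 (-1.34) and Neurod2 (-1.44) were lower and Slc17a7 (0.73), the vesicular glutamate transporter, was higher (quasi-likelihood adjusted p = 0.00165, 0.00818, 0.0138 and 0.0172). With the block 2 of 8 were higher and 5 lower in each compartment. Of all tested genes, 3.59% were called in somata and 3.74% in processes, and 14% and 11.2% with the block. Slc17a7 stood at -0.33 in somata. Its interaction of 1.07 did not pass (quasi-likelihood adjusted p = 0.758) but passed with the block (adjusted p = 0.000451), where 0.105% of all tested genes did. The summed excitatory markers had 442 to 459 CPM in control and 297 to 319 CPM in PTX somata, and 747 to 998 against 530 to 531 CPM in processes, and their part in the member values was not tested.

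The remaining machinery of the nets was described through 4 lists with 80 genes, of which 78 had a row and 73 were tested. After PTX, 7 of 73 were called in somata (6 higher, Mmp9 among them, which is qualified below, and 1 lower, 9.59%, beside 3.59% of all tested genes) and 3 of 73 in processes (all higher, 4.11%, beside 3.74%). With the replicate block the counts were 22 (15 higher and 7 lower, 30.1%, beside 14% of all tested genes) and 14 (11 higher and 3 lower, 19.2%, beside 11.2%). The 15 include Mmp9 and Mmp3, which passed the filter only through somata PTX and so had to differ there. Mmp3 had 9 reads in somata control and 51 in somata PTX. The 11 include Mmp9 and Has1, which also passed only through somata PTX. All 4 lists were drawn up with earlier results of these data known. These counts and shares therefore describe the lists, and no enrichment was read from them.

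Of the enzymes that build and sulfate chondroitin chains, 2 of 20 rose in somata and 1 of 20 in processes. Chst3, which places sulfate at the 6-position of chondroitin, rose in both compartments. It had 13.1 and 14.4 CPM in somata control against 20 and 22.9 CPM in somata PTX (log2 fold change 0.64, SE 0.128, quasi-likelihood adjusted p = 0.0212), and 14.9 and 14.2 CPM in processes control against 33 and 28.7 CPM in processes PTX (1.08, SE 0.142, quasi-likelihood adjusted p = 0.00396). Chst11, which places sulfate at the 4-position, rose in somata (0.56, SE 0.123, quasi-likelihood adjusted p = 0.0331) and stood at 0.39 (SE 0.138, quasi-likelihood adjusted p = 0.179) in processes. The linkage enzymes Fam20b and B3gat3, the most abundant of the list that did not pass, were at 0.07 (SE 0.097) and -0.03 (SE 0.115) in somata. With the block 2 of 20 were higher and 1 lower in somata, beside 14% of all tested genes. In processes 1 was higher and 1 lower, beside 11.2%. The lower genes were Csgalnact1 in somata (-0.39, quasi-likelihood adjusted p = 0.0969, and 0.0113 with the block) and B3galt6 in processes (-0.84, quasi-likelihood adjusted p = 0.0509, and 0.0162 with the block).

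Of the hyaluronan genes, 1 of 12 rose in somata. The gene was Hmmr, a hyaluronan receptor that also acts in the mitotic spindle (log2 fold change 0.82, SE 0.179, quasi-likelihood adjusted p = 0.0311). The hyaluronan receptor Cd44 (-0.13, SE 0.298) and Ugdh, which makes a precursor sugar (0.06, SE 0.179), did not pass. Has1, a hyaluronan synthase that passed the filter only through somata PTX, rested in processes on 0 reads in both control libraries and on 5 and 3 reads in the PTX libraries and did not pass (quasi-likelihood adjusted p = 0.0863, and 0.0451 with the block). Its fitted value, the furthest point to the right among the processes values, depends on the prior count and gives no size.

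Among proteases and their inhibitors, 1 of 21 rose and 1 of 21 fell in somata, and 1 of 21 rose in processes. The gene counted as higher in somata was Mmp9, a gelatinase that cleaves matrix proteins, with 4 and 2 reads in control and 40 and 33 reads in PTX libraries. It passed the filter on low counts only through somata PTX, where it is high, so it had to differ there and its p is not given. Its processes libraries held 1 and 0 reads in control and 6 and 10 reads in PTX. Timp2, an inhibitor of matrix metalloproteinases, fell in somata (-0.47, SE 0.0983, quasi-likelihood adjusted p = 0.0253), and stood at -0.35 (SE 0.104, quasi-likelihood adjusted p = 0.104, and 0.0184 with the block) in processes. Plat, the tissue plasminogen activator, rose in processes from 19.4 and 17 CPM to 41.6 and 27.8 CPM (0.92, SE 0.209, quasi-likelihood adjusted p = 0.0379) and stood at 0.68 in somata (SE 0.180, quasi-likelihood adjusted p = 0.0688, and 1.11e-05 with the block). Mmp24 and Mmp14, membrane-bound metalloproteinases, were at 0.50 (SE 0.162, quasi-likelihood adjusted p = 0.147) and -0.33 (SE 0.186, quasi-likelihood adjusted p = 0.453) in somata; with the block they passed in opposite directions (adjusted p = 0.000775 and 0.0337).

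Of the other net components and receptors, 2 of 20 rose in somata and 1 of 20 in processes. Nptx2, a secreted pentraxin that clusters AMPA receptors on interneurons and is found in nets, rose in both compartments. It had 27.2 and 26.9 CPM in somata control against 105 and 101 CPM in somata PTX (1.93, SE 0.101, quasi-likelihood adjusted p = 9.56e-06), and 15.2 and 14.6 against 42.1 and 39.9 CPM in processes (1.46, SE 0.115, quasi-likelihood adjusted p = 0.000384). Sema3a, a chemorepellent that binds the chondroitin chains of nets, rose in somata from 5.87 and 4.15 CPM to 11.6 and 9.95 CPM (1.11, SE 0.191, quasi-likelihood adjusted p = 0.0102) and stood at 0.37 in processes (SE 0.258, quasi-likelihood adjusted p = 0.536). The receptor phosphatases Ptprz1 and Ptprs, which bind chondroitin sulfate proteoglycans, were at -0.10 (SE 0.160) and -0.30 (SE 0.122, quasi-likelihood adjusted p = 0.245, and 0.0408 with the block) in somata.

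**Figure D5:**
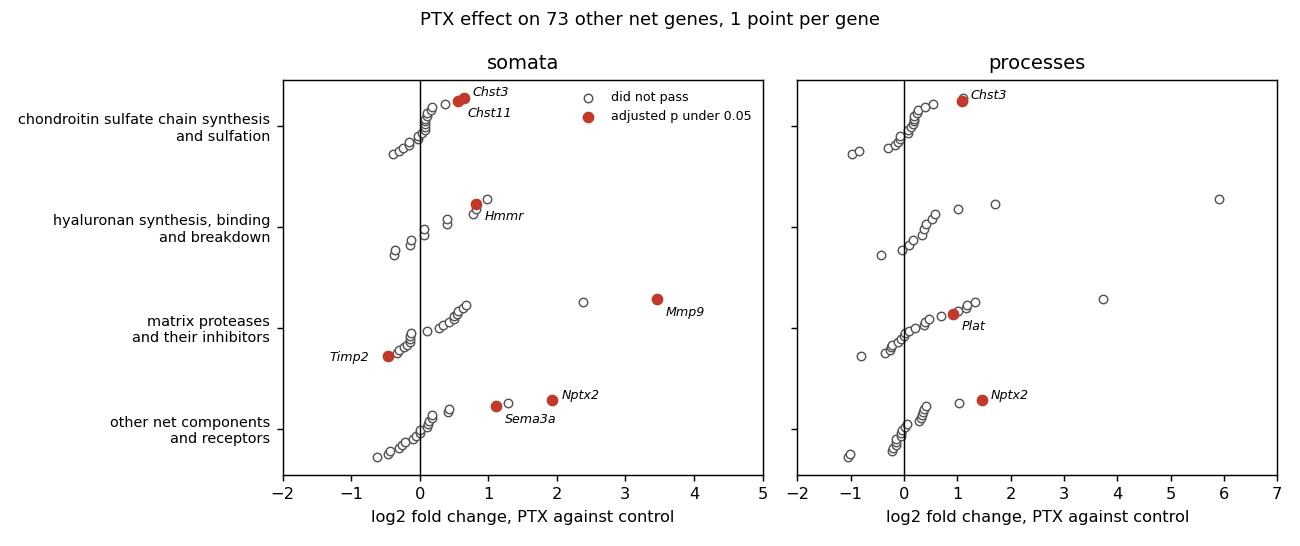
Log2 fold change of PTX against control for the 73 other net genes, 1 point per gene and 1 band per list, in somata (left) and processes (right, with a longer axis), with filled red points for adjusted p under 0.05. The 7 filled points in somata include Timp2 as the only one to the left of 0, and Chst3 and Nptx2 are filled in both panels.

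Between compartments of control cultures, 27 of the 73 genes were called, 22 lower and 5 higher in processes (37%, beside 47.7% of all tested genes), with a median of -0.41 against -0.05 over all tested genes. Nptx2 was lower in processes (-0.86, SE 0.113, quasi-likelihood adjusted p = 0.000127), as Acan was, while Chst3 stood at 0.08 (SE 0.141, quasi-likelihood adjusted p = 0.66).

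The genes whose levels followed Acan most closely over the 8 libraries, out of 10207 genes that averaged 5 CPM or more, were Dusp4 (Pearson r = 0.996 of log2 CPM), Nfil3 (r = 0.986) and Kcnt1 (r = 0.984). Dusp4 encodes a phosphatase of MAP kinases, Nfil3 a transcription factor and Kcnt1 a sodium-activated potassium channel. All 3 were higher after PTX in both compartments and lower in processes of control cultures, with smaller log2 fold changes than Acan (1.36, 1.95 and 0.89 in somata). For Hapln1 the closest genes were Tarsl2 (r = 0.987), Zbtb18 (r = 0.959) and Zfp644 (r = 0.959), and for Tnr they were Chka (r = 0.982), Mettl13 (r = 0.964) and Entpd2 (r = 0.963). Vcan was followed by Nlgn3 (r = 0.990), Thoc1 (r = 0.972) and St6gal1 (r = 0.970). The highest values of Ncan (Col16a1), Hapln4 (Map3k3) and Tnc (Atp13a1) lay between 0.946 and 0.973. The 8 points share 4 conditions and their replicates, so these are descriptions of likeness over these libraries.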

How the data were processed

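Total RNA of somata and processes was depleted of ribosomal RNA, made into directional libraries and sequenced. Per the labels the submitters' processing notes name STAR, featureCounts, edgeR and the build Rnor_6.0, whereas the methods describe alignment with Subread, so the aligner is uncertain. The authors deposited whole-number read counts for 28909 gene symbols without normalization, which sum copies that share a symbol, so that reads of near-identical or overlapping genes are of uncertain origin. Deposited tables of the authors' own fold changes and p-values were not used. Conditions and replicate numbers came from the sample labels.

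The members and all lists were chosen with earlier results of these data known. A gene was kept if 2 or more of the 8 libraries each held over 20 of its reads, which left 14309 genes. edgeR 4.0.16 in R 4.3.3 fitted TMM-scaled counts of all libraries with 1 coefficient per condition, and the quasi-likelihood test (glmQLFit, glmQLFTest) gave p-values, adjusted by the Benjamini-Hochberg method over all tested genes within each contrast (threshold 0.05). Standard errors were obtained as the absolute log2 fold change over the root of F, and for the interaction the square root of the summed squares of the SEs in somata and processes. Likeness used log2 CPM with a prior count of 2. The median tested gene had 268 to 319 reads in somata and 96 to 110 in processes libraries, so processes values are less precise. Lists of other net genes and markers were counted whole. Named from each list and PTX contrast were up to 3 called genes with the largest change and up to 2 abundant genes that did not pass. Hapln3, Has1, Csgalnact1, B3galt6, Gad1, Gad2, Slc32a1 and values of called genes in the other compartment were named after their values were seen.

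The replicate numbers come from the labels, which do not say what they mark. The difference between replicates correlated across genes at r = 0.54 for the pairing of control with PTX somata, and at r of 0.27 to 0.37 for the 5 remaining pairs. On this basis the numbers were treated as pairing the libraries in the replicate block and the within-replicate differences. The main fit, with 1 coefficient per condition, did not use the pairing. The alternatives tried were DESeq2 1.42.0, the likelihood ratio test, other scalings and filters, only the 4 libraries compared, the replicate block, and leaving out each library. The scripts were tested on simulated data. Promoter windows and gene order came from RefSeq tables of assembly GRCr8, a later assembly than that of the files. The likeness values of Bcan are not reported here.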

Additional observations from a re-analysis of the deposited data

Results flagged for a closer look

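Ptprz1, a receptor phosphatase that binds chondroitin sulfate proteoglycans, was singled out because both replicates had a negative PTX value in somata (-0.19 and -0.03 on the log2 scale) and a positive PTX value in processes (0.34 and 0.22). Processes minus somata, the difference of the PTX values was 0.38 (SE 0.227, 95% interval -0.12 to 0.88), which did not pass the quasi-likelihood interaction test (adjusted p = 1, and 0.404 with the replicate block). The same signs were not particular to Ptprz1. Both replicates also had them for Timp3 (interaction 0.35) and Mmp15 (0.23), and for the markers Erbb4 (0.48) and Slc17a7 (1.07), among others.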

How the results depend on the processing

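The PTX log2 fold change of Acan, on which the family was selected and which is given as a description, was 3.04 to 3.82 (somata) and 2.99 to 3.91 (processes) when each library was left out. Requiring 10 reads or more in each library removed Acan, which had 6 reads in a processes control library, so that the members called after PTX were then 0 in somata and 0 in processes. In somata the count of called members, which includes Acan and is a description, was 3 with the likelihood ratio test and 2 with DESeq2. It was 3 without a filter and 4 with the replicate block. In processes it was 2 without a filter and 2 with the block. Of all tested genes, 6.79% (likelihood ratio test), 3.52% (DESeq2), 5.04% (no filter) and 14% (block) were called after PTX in somata. In processes these shares were 6.63%, 4.47%, 4.98% and 11.2%. The count of other net genes after PTX was 14 (likelihood ratio test), 16 (no filter) and 22 (block) in somata, and 9, 11 and 14 in processes, with 5 by DESeq2. With a somata library left out, 1 condition of the somata contrast held 1 library, and fewer of all tested genes were called as well. Counts of other net genes from those fits are therefore not compared with the main fit.

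Between compartments of control cultures, the count of lower members was 8 when scaled by library size only, 5 by upper quartile, 5 without a filter and 5 with the block. In PTX cultures it was 8 by library size, 5 without a filter and 5 with the block. Library size scaling also called all 73 other net genes in control cultures, where it called 94.1% of all tested genes (13271 of 14309 lower). In control cultures 4704 (upper quartile) and 4003 (block) of 14309 genes were lower, and 3607 of 22657 without a filter. In PTX cultures 13318 (library size) and 4233 (block) of 14309 genes were lower, and 3878 of 22657 without a filter. Bcan changed sign in control cultures, to -1.80 (library size), -0.19 (upper quartile), 0 (no filter) and -0.05 (at least 10 reads), and in PTX cultures, to -1.69 and -0.03 by the first 2 of these. With a library left out, values near 0 crossed it: in control cultures Bcan ranged from -0.14 to 0.19 and Hapln1 from -0.25 to 0.08, and in PTX cultures Bcan from -0.01 to 0.29, Ncan from -0.24 to 0.10 and Hapln1 from -0.23 to 0.15. For the interaction, Acan was 0 with DESeq2 and 0.01 with upper quartile scaling and ranged from -0.45 to 0.52 with a library left out, Bcan from -0.03 to 0.30, Vcan from -0.01 to 0.57, Hapln1 from -0.13 to 0.24 and Tnc from -0.22 to 0.37. The replicate block changed no other call of a member than those given in the text. Apart from the scalings, whose shift of all genes is in the text, and the filters and left-out libraries, which change the genes or samples by construction, the cause was not tested.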
